A study of Caenorhabditis elegans with 2 samples.

Results

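This report describes 32 Caenorhabditis elegans genes of the cell cycle and DNA replication, among 19973 nuclear protein-coding genes, in a chromatin immunoprecipitation (ChIP-seq) map of RBR-2. The genes were chosen by name, with earlier results of these data known. They fall into 10 DNA replication genes, 10 cyclin, cyclin-dependent kinase (CDK) and CDK inhibitor genes, 8 mitosis genes and 4 ubiquitin ligase genes. RBR-2 belongs to the KDM5 enzymes, which remove methyl groups from lysine 4 of histone H3, and is their representative in worms. Its map was made in whole hermaphrodite L4 larvae of strain OP195, grown for 56 hours after starved L1 larvae were synchronised, with a GFP-FLAG tag fused to the C terminus of RBR-2. Both libraries are biological replicates of this 1 group, with no other stage, genotype or treatment. The submitters' description names an anti-GFP antibody and their antibody field names rbr-2, so the labels do not settle which antibody was used. In whole animals, binding in few cells and weak binding in many cells cannot be told apart.

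A cell copies its DNA after the origin recognition complex, CDC-6 and CDT-1 have loaded the MCM helicase at origins, and the clamp PCN-1 then holds DNA polymerase on its template. Cyclins paired with CDKs drive entry into this phase and into mitosis, kinetochore and checkpoint proteins attach and supervise the chromosomes, and ubiquitin ligases destroy cyclins and inhibitors. In L4 larvae the germ line proliferates and divisions of the vulva and uterus take place, while most somatic cells no longer divide. Many genes of these processes are known in animals as targets of E2F factors, whose sites share a TTCCCGC-like core, and of DREAM-type repressor complexes.

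The sequences below are the 100 bases around the strongest summit of 4 of the bound genes, shown so that the motif matches described further on can be read in place. They are not the 4 strongest: the set was limited by chromosome, and cdc-6 and mcm-4, which had higher signals than mdf-1, ndc-80 and cdk-4, are not shown. They were read from the RefSeq genome, whose assembly matches ce11, and are written 5′ to 3′ on the strand of the gene. Capitals mark TTCCCGC or its reverse complement. The stretches lie at chrIV:4049677-4049776 for pcn-1 (minus strand), chrV:9544374-9544473 for mdf-1 (minus strand), chrIV:10085826-10085925 for ndc-80 (plus strand) and chrX:13519284-13519383 for cdk-4 (minus strand).
pcn-1: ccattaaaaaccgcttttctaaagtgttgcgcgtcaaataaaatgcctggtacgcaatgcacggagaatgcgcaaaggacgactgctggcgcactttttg
mdf-1: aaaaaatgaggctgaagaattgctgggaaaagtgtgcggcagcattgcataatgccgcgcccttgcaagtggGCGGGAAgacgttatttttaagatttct
ndc-80: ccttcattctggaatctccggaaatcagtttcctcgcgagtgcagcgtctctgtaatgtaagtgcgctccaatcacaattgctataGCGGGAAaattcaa
cdk-4: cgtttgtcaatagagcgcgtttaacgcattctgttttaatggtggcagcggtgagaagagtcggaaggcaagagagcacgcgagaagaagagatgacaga
All 4 summits were intergenic. The mdf-1 and ndc-80 stretches hold the core on the side toward the gene, and the pcn-1 and cdk-4 stretches do not hold it.

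A gene was called bound when the summit of an optimal peak, from the authors' list that passed the irreproducible discovery rate procedure, lay within 500 bp of its annotated 5′ end. RBR-2-GFP was bound at 9 of the 32 genes (28.1%), compared with 9.46% of all protein-coding genes. The bound genes were 5 of the 10 replication genes (50%), 3 of the 8 mitosis genes (37.5%), 1 of the 10 cyclin and kinase genes (10%) and 0 of the 4 ubiquitin ligase genes. The shares of the replication and mitosis genes stood above that of all genes, and the share of the cyclin and kinase genes was near it. The differences between classes were not tested, because the study has 1 group and genes are not replicates.

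**Figure D1:**
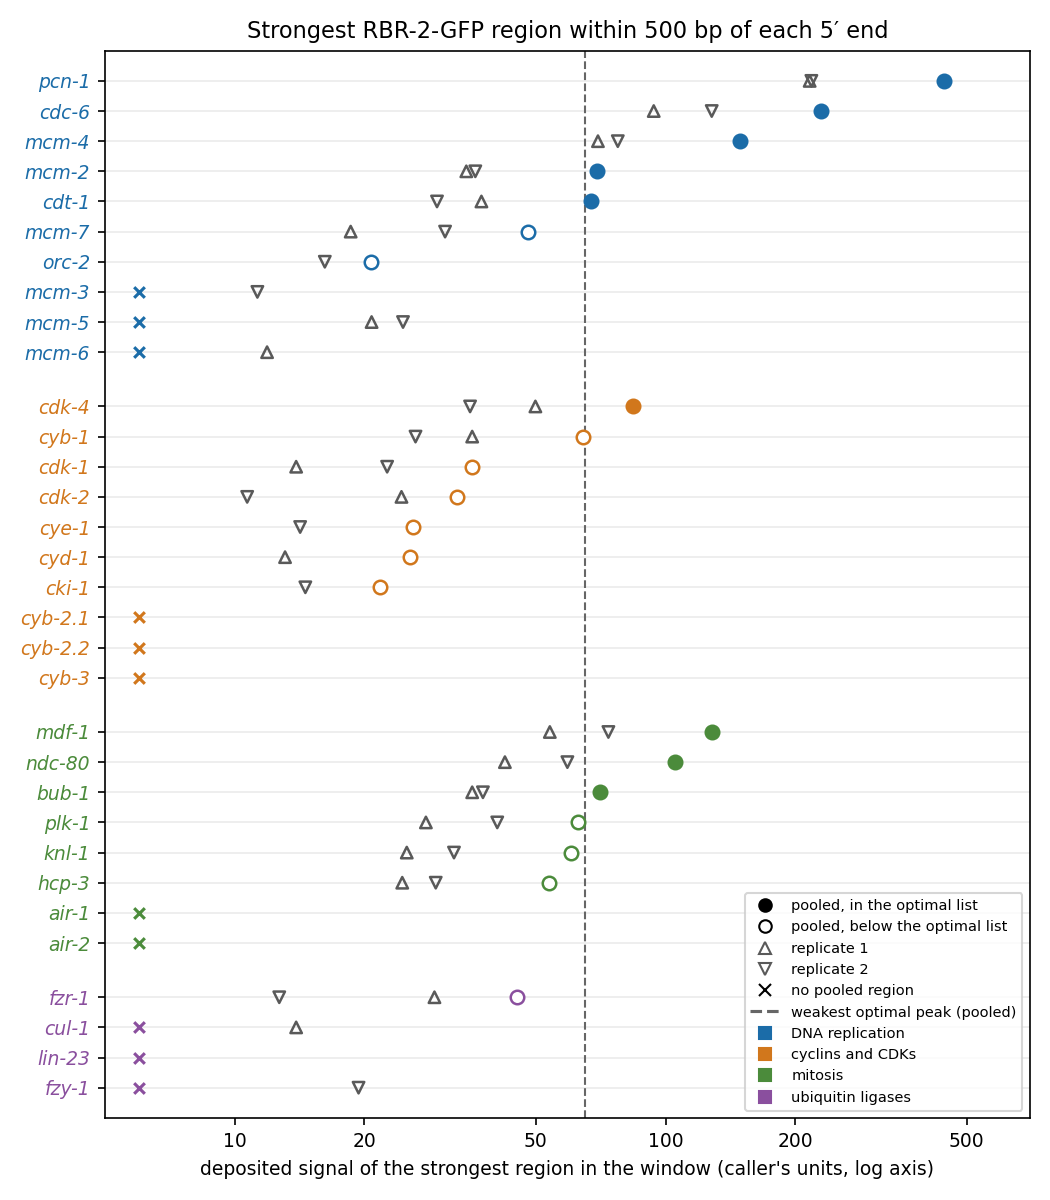
Deposited signal of the strongest region within 500 bp of each gene's 5′ end (log axis), in the pooled list (circles, filled where the region is in the optimal list) and in each replicate list (triangles). Crosses at the left mark genes with no pooled region, and the dashed line is the weakest optimal peak, at 65.2. Signals of different lists are on different scales. The 9 bound genes run from 67.0 at cdt-1 to 443 at pcn-1, and only those 9 lie right of the line.

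Among the replication genes, the clamp gene pcn-1 had the strongest peak. Its signal, the peak caller's own measure of strength, was 443 in the pooled list (rank 119 of 30000), 216 in replicate 1 (rank 106) and 218 in replicate 2 (rank 157). The peak spanned chrIV:4049578-4049894 with its summit 279 bp upstream of the gene, and a weaker optimal peak of signal 94.5 had its summit 479 bp upstream. Both replicates placed pcn-1 among their strongest sites.

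At cdc-6, whose product helps load the helicase, the signal was 230 in the pooled list (rank 533), 93.9 in replicate 1 (rank 705) and 128 in replicate 2 (rank 485). The summit lay 285 bp upstream of cdc-6 on chromosome I and 94 bp upstream of acin-1, which is transcribed away from it, so this peak cannot be assigned to one of the pair. When each peak went to the nearest gene alone, cdc-6 was not counted as bound.

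The helicase subunit genes mcm-2 to mcm-7 were not bound alike, although their products act in a single complex. At mcm-4 (chromosome I, summit 182 bp upstream) the signal was 149 in the pooled list (rank 1152), 69.7 in replicate 1 (rank 1200) and 77.5 in replicate 2 (rank 1205). At mcm-2 (chromosome II, summit 254 bp upstream) it was 69.5 (rank 3180), 34.5 (rank 3129) and 36.2 (rank 3487) in the same order. The rank of mcm-4 was close in both replicates, while mcm-2 lay close to the end of the optimal list and outside the strongest 3442 regions of replicate 2.

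The other 4 helicase genes were not bound. The strongest pooled region near mcm-7 had a signal of 48.0, with 18.6 in replicate 1 and 30.8 in replicate 2. The mcm-5 window held no pooled region but a weak region in each replicate, of 20.8 and 24.6. The windows of mcm-3 and mcm-6 held no pooled region, and each had a weak region in 1 replicate, of 11.3 in replicate 2 and 11.9 in replicate 1.

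The licensing gene cdt-1 was the weakest bound gene, with a pooled signal of 67.0 (rank 3331), 37.4 in replicate 1 (rank 2840) and 29.5 in replicate 2 (rank 4636). Its summit was 4 bp downstream of the annotated start on chromosome I, in the 5′ UTR of cdt-1, whereas the other 8 bound genes had an intergenic summit upstream. For orc-2, a subunit of the origin recognition complex, the strongest pooled region reached 20.7 and the nearest optimal peak lay 1201 bp upstream with a signal of 158.

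Of the cyclin and kinase genes only cdk-4 was bound. It encodes the CDK that acts with cyclin D in G1. Its signal was 83.9 in the pooled list (rank 2506), 49.9 in replicate 1 (rank 1950) and 35.2 in replicate 2 (rank 3626). The summit lay 423 bp upstream of cdk-4 and 329 bp upstream of the divergent gene F18H3.1, and the gene was no longer bound when the peak went to the nearer gene. Replicate 2 placed cdk-4 below its strongest 3442 regions.

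The mitotic cyclin gene cyb-1 was the nearest miss. Its strongest pooled region, 476 bp upstream, had a signal of 64.2 (rank 3499) against 65.2 at the end of the optimal list. The signal was 35.6 (rank 3015) in replicate 1 and 26.3 (rank 5613) in replicate 2. The divergent replication gene orc-5 begins 628 bp upstream of cyb-1. The summit was therefore nearer to orc-5 than to cyb-1, and this region cannot be assigned to one of the pair. Pooled regions at cdk-1, the mitotic CDK, reached 35.6, at cdk-2 32.9, at the cyclin E gene cye-1 25.9, at the cyclin D gene cyd-1 25.6 and at the CDK inhibitor gene cki-1 21.7. These were all below the optimal list. A strong optimal peak of signal 204 lay 581 bp upstream of cye-1, just past the window.

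The windows of cyb-2.1, cyb-2.2 and cyb-3, which encode B-type cyclins, held no region in any list. Part of the sequence around the first pair is repeated in the genome: 37.7% of the 36-base stretches within 500 bp of the cyb-2.1 start and 27.3% of those at cyb-2.2 occur again, while the other 30 genes had no such stretch. How reads with several matches were handled is not given in the sources used here, and the part of these repeats in the absence of regions was not tested.

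The 3 bound mitosis genes act at kinetochores. mdf-1, the worm Mad1 gene of the spindle checkpoint, had a signal of 128 in the pooled list (rank 1465), 53.9 in replicate 1 (rank 1754) and 73.7 in replicate 2 (rank 1314), with the summit 198 bp upstream on chromosome V. ndc-80, which encodes a microtubule-binding kinetochore protein, had 105 (rank 1933), 42.4 (rank 2432) and 59.2 (rank 1800), with the summit 261 bp upstream. bub-1, a checkpoint kinase gene, had 70.5 (rank 3127), 35.6 (rank 3019) and 37.7 (rank 3316), with the summit 231 bp upstream. All 3 were among the strongest 3442 regions of both replicates.

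The ndc-80 peak was also 425 bp upstream of the collagen gene col-2, and the bub-1 peak 428 bp upstream of lin-61. In both cases the cell cycle gene was the nearer of the pair. The replicate 1 summit for bub-1 was 103 bp from the optimal summit, and no replicate 1 summit lay within 100 bp of it.

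Of the unbound mitosis genes, plk-1, knl-1 and hcp-3 had pooled regions below the optimal list. At plk-1, the Polo kinase gene, the signal was 62.8 (rank 3585), with 27.8 in replicate 1 and 40.7 in replicate 2, where it ranked 3001 and was counted as bound. The kinetochore scaffold gene knl-1 had 60.3 (rank 3744) and hcp-3, which encodes the centromeric histone, 53.7 (rank 4364). The Aurora kinase genes air-1 and air-2 had no region in any list.

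None of the ubiquitin ligase genes was bound. fzr-1, a Cdh1-type activator of the anaphase-promoting complex, had a pooled region of 45.2, with 29.1 in replicate 1 and 12.7 in replicate 2. The windows of cul-1 (the cullin of SCF ligases), lin-23 (an F-box protein) and fzy-1 (a Cdc20-type activator) held no pooled region. Weak regions lay at cul-1 in replicate 1, of 13.9 and 13.7, and at fzy-1 in replicate 2, of 19.4. The lin-23 window held no region in any list. An optimal peak of signal 172 lay 957 bp upstream of lin-23.

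**Figure D2:**
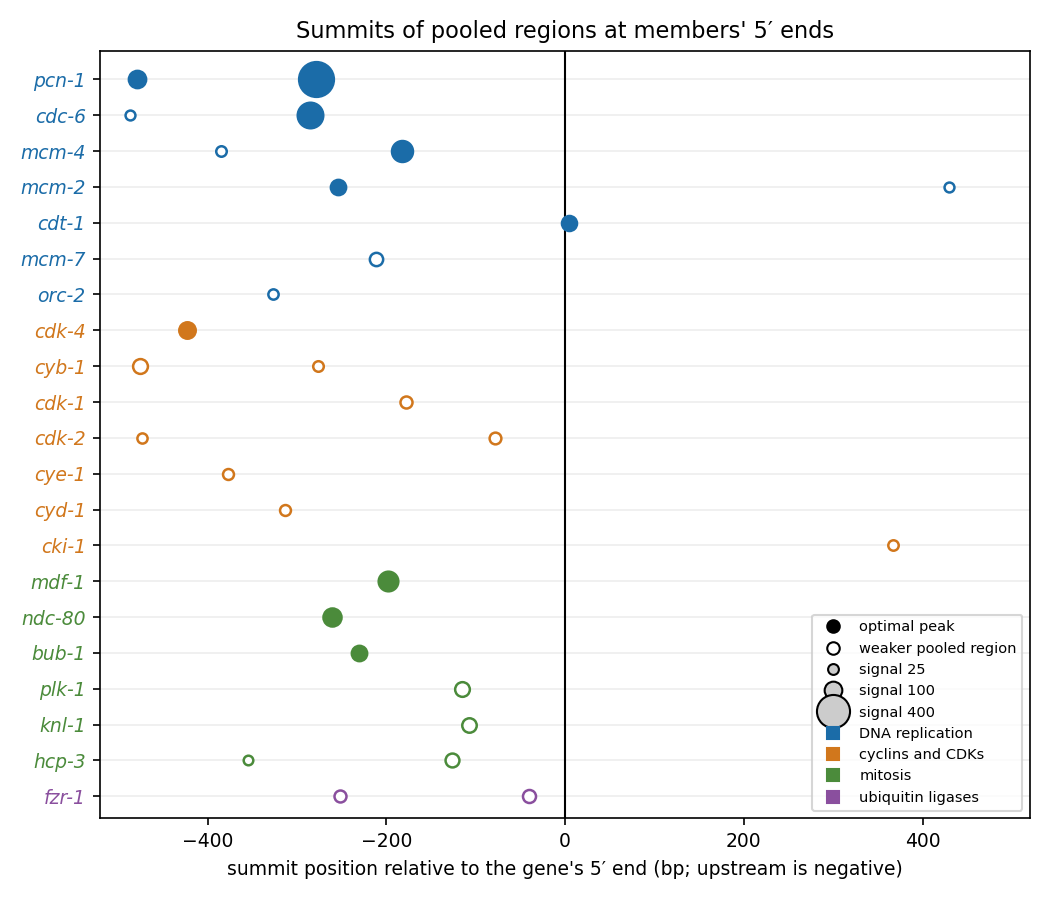
Summits of pooled regions relative to the 5′ end of each of the 21 genes that had one (bp, upstream negative), with circle area rising with signal and filled circles for optimal peaks. Of the 9 bound genes, 8 had their strongest summit upstream, between 182 and 423 bp, and cdt-1 had it 4 bp downstream.

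The bound genes were set beside all bound genes in strength and position. Their median signal was 105, compared with 126 over all 1890 bound genes. The median summit position was 254 bp upstream, compared with 181 bp. The summit was upstream of 8 of 9 genes (88.9%), compared with 90.1%, and 4 of 9 (44.4%) shared their peak with another gene, compared with 43.2%.

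The pooled list, which includes background, reached more of these genes. A pooled region of any strength, background included, lay within 500 bp of 21 of the 32 (65.6%), compared with 33.1% of all genes, and the counts were 7 of 10 replication, 7 of 10 cyclin and kinase, 6 of 8 mitosis and 1 of 4 ubiquitin ligase genes. These 21 are the 9 bound genes and 12 with only a region below the optimal list. The median of the strongest pooled signal over those 21 was 62.8, compared with 34.2 over the 6610 genes with a region. Among genes with any pooled region, 9 of 21 (42.9%) were bound, compared with 28.6%. The replication and cyclin classes had a pooled region equally often, and of those genes 5 of 7 and 1 of 7 had an optimal peak.

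Each replicate was next taken alone, with its strongest 3442 regions. In replicate 1, 10 genes were bound (31.2%, compared with 9.42% of all genes), the same 9 and cyb-1. The cyb-1 summit was nearer to the divergent gene orc-5, which was also bound in replicate 1. In replicate 2, 7 were bound (21.9%, compared with 9.05%), with plk-1 gained and mcm-2, cdt-1 and cdk-4 lost. A strongest region of both replicates lay at 6 genes (18.8%, compared with 7.68%), which were pcn-1, cdc-6, mcm-4, mdf-1, ndc-80 and bub-1.

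The order of the classes depended on the replicate. Replication genes were bound more often than mitosis genes in replicate 1 (50% and 37.5%), and less often in replicate 2 (30% and 50%). Cyclin and kinase genes stood at 20% and 0%, below both classes in each replicate. These orders were not tested.

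**Figure D3:**
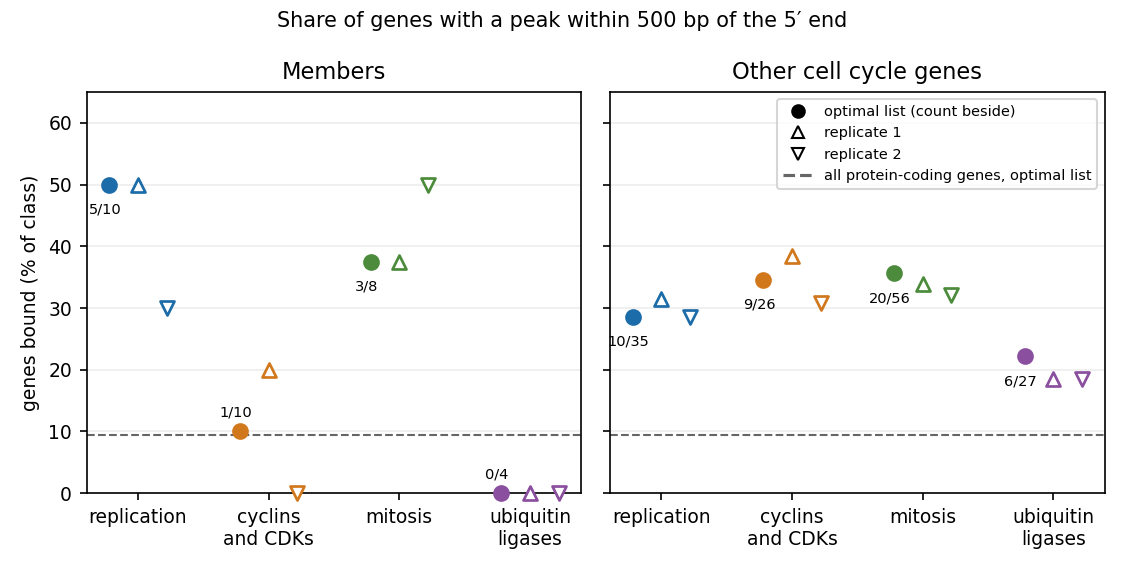
Share of genes with a peak within 500 bp of the 5′ end (% of class) for the 32 genes at the left and 144 other cell cycle genes at the right, in the optimal list (filled, with counts) and in the strongest 3442 regions of each replicate (open triangles). The dashed line is the share of all protein-coding genes, 9.46%. Replication and mitosis exchange order between replicates at the left, and the cyclin and kinase share is 10% at the left and 34.6% at the right.

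Replicate signals of the bound genes were compared as a ratio. The ratio of replicate 2 to replicate 1 had a median of 1.06 over the 9 genes, with a range of 0.705 at cdk-4 to 1.40 at ndc-80, compared with a median of 1.1 over all bound genes with a region in both. Counting only summits within 200 bp of the optimal summit, 6 of 9 (66.7%) were among the strongest of both replicates, compared with 78.2% of all 3423 nuclear optimal peaks.

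**Figure D4:**
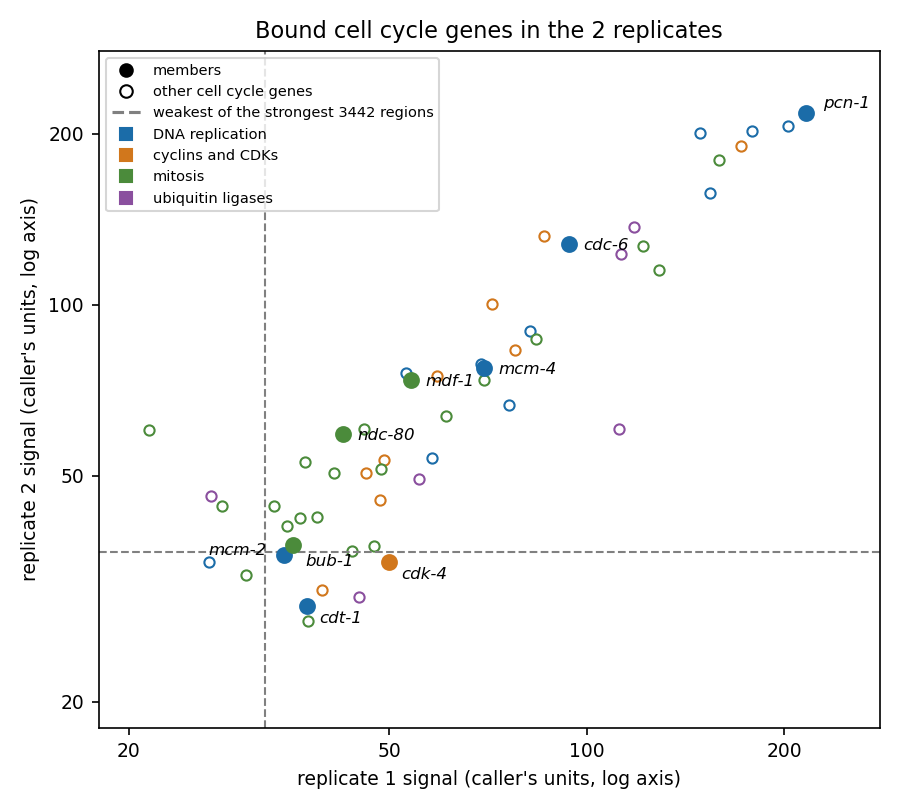
Signal in replicate 1 and replicate 2 (log axes) for bound genes, with the 9 members filled and named and other cell cycle genes open. Dashed lines mark the weakest of the strongest 3442 regions, at 32.3 in replicate 1 and 36.7 in replicate 2. pcn-1 lies at the upper right, and mcm-2, cdt-1 and cdk-4 lie below the replicate 2 line.

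The counts moved with the threshold and window. In the stronger 50% of the optimal list 4 genes were bound (12.5%, compared with 5.32% of all genes), pcn-1, cdc-6, mcm-4 and mdf-1. Within 250 bp 4 were bound (12.5%, compared with 6.06%), mcm-4, cdt-1, bub-1 and mdf-1. Within 1000 bp 11 were bound (34.4%, compared with 12.3%), with cye-1 and lin-23 added. Assigned to the nearest gene only, 7 were bound (21.9%, compared with 7.42%), and counted from any annotated transcript start the same 9 were bound (28.1%, compared with 10.3%).

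A longer list of 144 other cell cycle genes in the same classes, also chosen with earlier results of these data known, was described beside the 32. Of these, 45 were bound (31.2%, compared with 9.46% of all genes). With the nearest gene only, 35 were bound (24.3%, compared with 7.42%). Of the 45, 28 (62.2%) shared their peak with another gene, compared with 43.2% of all bound genes. The 45 included 10 of 35 replication genes (28.6%) and 9 of 26 cyclin and kinase genes (34.6%). They also included 20 of 56 mitosis genes (35.7%) and 6 of 27 ubiquitin ligase genes (22.2%). The cyclin and kinase share was higher there than the 10% among the 32. The replication share was lower there than the 50% among the 32, so replication stood below cyclins and kinases in the longer list. Both classes there hold other genes than the 32, such as cdk-7, cdk-5 and wee-1.3 for cyclins and kinases. Over both lists together, 15 of 45 replication genes (33.3%) and 10 of 36 cyclin and kinase genes (27.8%) were bound. The change of order was not tested.

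In the longer list the 3 strongest replication genes were top-2, encoding topoisomerase II (signal 405), the replisome gene ctf-4 (384) and the clamp loader gene rfc-4 (352). Each shared its peak, with the nucleoporin gene npp-3 for top-2 and the elongation factor genes eef-1G for ctf-4 and eef-1A.1 for rfc-4. The first summit was nearer to npp-3 (95 bp) than to top-2 (265 bp). The second was nearer to eef-1G (37 bp) than to ctf-4 (143 bp). The third was nearer to rfc-4 (139 bp) than to eef-1A.1 (402 bp). With the nearest gene only, top-2 and ctf-4 were not counted as bound. The strongest cyclin and kinase genes were cdk-7 (368), which encodes a CDK-activating kinase, cdk-5 (219.7) and the inhibitory kinase gene wee-1.3 (176). The cdk-5 summit lay in an intron of kel-3, 75 bp upstream of cdk-5.

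Of the mitosis genes there, the strongest were kbp-4, an NDC80 complex subunit (344, shared with rab-18), knl-3, a kinetochore subunit gene (249.5), and ify-1, the securin gene (248, shared with rpl-22). Of the ubiquitin ligase genes they were ubc-3, encoding a ubiquitin-conjugating enzyme (252), gfi-3, a subunit of the anaphase-promoting complex (237), and sel-10, an F-box protein gene (177). The kbp-4 summit lay in the 5′ UTR of rab-18. The knl-3 summit lay in the 5′ UTR of T10B5.3, 398 bp upstream of knl-3. The peak at pcn-1, with 443, was stronger than that of any of the 45 bound genes of the longer list.

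Sequence under the peaks was searched for 8 short motifs on both strands, in the 201 bases centred on each summit. None of the motifs was part of the design; 7 were chosen from background knowledge after the peak lists were read, and TGCGC was added after the sequences were seen. The E2F-type core TTCCCGC is described first because its count stood out once all 8 had been counted, so that count is a description only. It was present at 4 of the 9 bound genes (44.4%), mcm-4, cdt-1, mdf-1 and ndc-80, compared with 4.67% of the 1477 optimal peaks at protein-coding 5′ ends and 4.03% of all 3423 nuclear optimal peaks.

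The matches lay 15 bp from the summit at mcm-4, 27 bp at cdt-1, 26 bp at mdf-1 and 39 bp at ndc-80. In the longer list the core was present at only 3 of 45 bound genes (6.67%), crn-1, kbp-3 and sas-5. In promoters, taken as 250 bases before to 50 after the 5′ end, it was present at 4 of the 9 bound and 3 of the 23 unbound genes (cdk-2, cyd-1 and mcm-6), compared with 3.22% of all protein-coding genes. These promoters hold the summits of only 4 of the 9 bound genes, mcm-4, cdt-1, bub-1 and mdf-1. Summits of the other bound genes lay more than 250 bp upstream.

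Between the bound genes and peaks at 5′ ends, the shares of the other 7 motifs differed by a smaller ratio or ran the other way. TTGGCGC, another E2F-type core, was present at 1 of 9 bound genes (mcm-4), at 10 of 45 in the longer list (22.2%) and at 7.65% of peaks at 5′ ends. TTTGAA, found in DREAM-bound promoters, was present at 7 of 9, at 48.9% of the longer list and at 35% of peaks at 5′ ends, and TTCGAA at 3 of 9, 35.6% and 13.9%.

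GCGCG was present at 7 of 9 bound genes, at 64.4% of the longer list and at 45.8% of peaks at 5′ ends, and TGCGC at 6 of 9, 53.3% and 46.4%. In promoters GCGCG was present at 6 of the 9 bound and 12 of the 23 unbound genes, compared with 14.1% of all genes. TGCGC was present in promoters of 2 of the 9 bound and 10 of the 23 unbound genes, compared with 17.9%. Most bound summits lay outside these promoters, so promoter counts do not describe the bound sites. Of the promoters with TTTGAA, 8 belonged to the 9 bound and 16 to the 23 unbound genes, compared with 62.5% of all genes. Promoters with TTCGAA belonged to 4 of the 9 bound and 4 of the 23 unbound genes, compared with 18.2%. For bound and unbound genes the promoter counts were 1 and 1 for TTGGCGC, compared with 2.17% of all genes. They were 2 and 3 for GAGAGA (21.8%) and 1 and 2 for CACGTG (5.82%). Around the summits GAGAGA was present at 3 of 9, compared with 34.1% of peaks at 5′ ends, and the E-box CACGTG at 0 of 9, compared with 4.47%. GCGCG overlapped TGCGC at mcm-2 and pcn-1 and TTGGCGC at mcm-4, so these counts are not separate. The median GC content of the 201 bases was 41.3% at the bound genes, compared with 42.3% at peaks near 5′ ends.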

How the data were processed

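RBR-2-GFP ChIP-seq peaks were analysed in 2 biological replicates of L4 larvae. Per the text deposited with the files, the authors called regions from each replicate and from the pooled replicates with a control, and derived the optimal list from these by irreproducible discovery rate. The replicate and pooled lists hold background regions too. Aligner, peak caller, versions and thresholds are not given in the sources used here. A signal value is deposited per region as the caller's own strength and was used within a list to describe and rank regions. Across lists it was used only for the ratio of replicate 2 to replicate 1 and in figures. That ratio carries any difference in scale between the replicate lists. The deposited −log10 q-value was 2.92 for all 3442 optimal peaks and ranked nothing. The optimal list was identical to the strongest 3442 of the 30000 pooled regions; the replicate lists held 26742 and 28724. Lists in ce10 and control reads were not analysed here. Peak lists hold no reads, so depth is unknown and single signals have no error.

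Summits, 1-based in ce11, were compared with gene 5′ ends of Ensembl release 115 on the nuclear chromosomes with Python 3.11.15, and figures were drawn with matplotlib 3.10.9. Sequence came from RefSeq. Gene calls were tested on simulated peaks in each mode and equalled a direct comparison of all peaks with all 5′ ends. No statistical test was made. Alternatives were the stronger 50% of optimal peaks, each replicate alone, windows of 250 and 1000 bp, nearest gene only, all transcript 5′ ends, the mitotic kinases plk-1, air-1 and air-2 counted with the CDKs, and shared-summit distances of 100 and 400 bp. The members and lists were chosen with earlier results of these data known, and the motifs with the peak lists in view. All members are named, with the 3 strongest bound genes per class of the longer list, and sequences of up to 4 bound genes off chromosome I, in order of signal among those. Genes of the longer list with the motif core are named too, chosen after their sequences were seen. Of its 148 names, 4 matched no gene (cdc-45, pold-1, rfc-5 and apc-1).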

Additional observations from a re-analysis of the deposited data

How the results depend on the processing

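The count of bound genes was 9 and fell to 4 in the stronger 50% of the optimal list and to 4 within 250 bp. Replication genes fell from 5 to 3 in the stronger 50% and to 2 within 250 bp, and ranged from 3 to 5 when either replicate was left out. Cyclin and kinase genes went from 1 to 0 in the stronger 50%, within 250 bp and with the nearest gene only, to 2 within 1000 bp, and ranged from 0 to 2 when a replicate was left out. Mitosis genes fell from 3 to 1 in the stronger 50%, and ubiquitin ligase genes rose from 0 to 1 within 1000 bp. A smaller list or a narrower window can only keep or lower a count. The share of all genes fell from 9.46% to 5.32% in the stronger 50% and to 6.06% within 250 bp. The share of the 32 fell from 28.1% to 12.5% in both settings, and the reason was not tested. The other 26 counts under an alternative stayed within 1.5 times the main count. Some calls differed between replicates: mcm-2, cdt-1, cdk-4 and cyb-1 were bound in replicate 1 alone, and plk-1 in replicate 2 alone. Depth is unknown, so a gene without a region is not shown to be unbound, and binding in few cells would be diluted in whole animals.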

Other observations

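Summits in the deposited lists kept a minimum distance. The closest pair of neighbouring summits was 199 bp apart in every list, and of the 171 neighbouring pairs of optimal summits within 500 bp, 159 (93%) lay 190 to 230 bp apart. In the pooled list the share was 60.8%. The 2 optimal summits upstream of pcn-1, at 279 and 479 bp, are such a pair. Whether these are separate sites or follow from the caller was not tested.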
